A study of Rattus norvegicus with 4 samples.

Results

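L1 and NCAM immunoglobulin adhesion molecules were examined in neuron-astrocyte co-cultures that were read before and after the neurons had been washed away. The 10 genes were L1cam, Nrcam, Chl1 and Nfasc of the L1 family, Ncam1 and Ncam2 of the NCAM family, and the contactins Cntn1, Cntn2, Cntn3 and Cntn4. They were found on the array by gene name or by the RefSeq transcript that a probe was designed for, among 35731 genes in all. Expression was measured on 4 Agilent whole rat genome arrays, each read in 2 colours. Co-culture (CC) was made of primary cortical astrocytes of Wistar rat pups at postnatal day 1 with hippocampal neurons of mouse embryos at embryonic day 18 plated on top. CC-CJ was the same kind of co-culture after cold jet, a stream of ice-cold buffer that lifts neurons off the astrocyte layer, and AA-CJ was rat astrocytes kept without neurons and also given cold jet. Every array carried CC-CJ in Cy3, against CC in Cy5 on 2 arrays and AA-CJ in Cy5 on the other two. Dyes were not swapped, so on any 1 array the dye cannot be told apart from the condition, while CC and AA-CJ shared a dye. Each sample pooled several animals and wells, and whether the CC-CJ RNA on both array pairs was the same is not given in the sources used here.

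These proteins sit in the plasma membrane with immunoglobulin and fibronectin type III domains outside the cell, and they bind each other or partners on neighbouring cells and in the matrix. In brain, L1CAM and contactins are known for axon growth and bundling, neurofascin and NrCAM for nodes of Ranvier and the axon initial segment, and NCAM for adhesion of neurons and glia alike. L1-type proteins cross the membrane and are anchored to the spectrin skeleton by ankyrins, whereas contactins are held by a lipid anchor and have no cytoplasmic part.

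The 10 genes had 17 probes. Of these, 11 probes of 8 genes were tested, namely those well above background in all samples of 1 or more of the RNAs. Ncam2, with 3 probes, and Cntn4, with 1 probe, were not well above background in any channel of any array. For Nrcam 2 of 3 probes were tested, for Cntn3 1 of 2, for Chl1 all 3, and for L1cam, Nfasc, Ncam1, Cntn1 and Cntn2 their only probe. On rn4, the single L1cam probe lay on the X chromosome (chrX:159784995-159785054), the Cntn1 probe on chr7:130814733-130815598, the Nfasc probe on chr13:45456385-45456444 and the Cntn2 probe on the same chromosome (chr13:45399926-45399985). The Ncam1 probe lay on chr8:52825923-52826918 and the Cntn3 probe on chr4:137121048-137121107. From start to end on the genome, the position of the Cntn1 probe spanned 866 bases and that of the Ncam1 probe 996. The positions of the L1cam, Nfasc, Cntn2 and Cntn3 probes spanned 60. These are distances between genome coordinates and not lengths of the probes. Exon and UTR annotation of rn4 was not used here. Since neurons were of mouse and the probes were designed for rat, neuronal mRNA was read across species, and how well each probe binds mouse mRNA was not tested.

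Promoters are shown for Cntn1 and Chl1, the only 2 genes that had both an entry in the RefSeq promoter table (GRCr8) and a share left after cold jet, given further on. Entries were found for 7 of the 10 genes, and L1cam, Nrcam and Ncam1 had none. Each sequence runs 5′ to 3′ on the plus strand from 250 bases before the gene's start to 50 bases after it, at chr7:125252060-125252359 for Cntn1 and chr4:137847645-137847944 for Chl1. Capitals mark matches to the E-box letters CANNTG, which read the same on both strands.
Cntn1: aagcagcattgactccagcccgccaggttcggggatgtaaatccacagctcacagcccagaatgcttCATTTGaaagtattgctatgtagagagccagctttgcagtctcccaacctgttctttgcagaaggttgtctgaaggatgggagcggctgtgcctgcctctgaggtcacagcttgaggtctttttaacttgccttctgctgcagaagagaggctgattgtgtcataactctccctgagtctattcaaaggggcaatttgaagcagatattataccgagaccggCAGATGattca
Chl1: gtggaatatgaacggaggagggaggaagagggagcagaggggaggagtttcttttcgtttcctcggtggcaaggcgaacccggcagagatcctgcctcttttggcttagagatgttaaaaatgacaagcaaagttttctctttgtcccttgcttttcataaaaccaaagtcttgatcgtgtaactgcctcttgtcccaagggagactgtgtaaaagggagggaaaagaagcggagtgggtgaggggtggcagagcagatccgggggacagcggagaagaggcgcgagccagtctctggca
The Cntn1 window held 2 such matches and the Chl1 window 0, and 72.1% of the 33469 promoters in the table held at least 1. The letters GGGCGG (in 33.1% of promoters), CCAAT (37.5%) and TATAAA (14.2%), searched on both strands, were in neither window.

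L1cam, whose product guides and bundles growing axons, was the member with the largest difference in level between whole co-culture and astrocytes alone. Its log2 intensity was 6.14 and 6.30 in the 2 AA-CJ samples, where it was well above background on 1 array. It was 7.09 and 6.90 in CC-CJ read beside AA-CJ, 7.63 and 7.63 in CC-CJ read beside CC, and 10.82 and 11.03 in CC. All CC values lay above all CC-CJ values, and all CC-CJ values lay above both AA-CJ values, an order not counted over all genes. M, the log2 ratio of CC-CJ to its partner on the same array, was -3.19 and -3.40 for CC-CJ versus CC, a mean of -3.29 ± 0.11 (SE, limma, adjusted p = 0.000113). For CC-CJ versus AA-CJ, M of L1cam was 0.95 and 0.60, a mean of 0.77 ± 0.11 (SE, limma, adjusted p = 0.0259). The call was lost without array 1 of CC-CJ versus AA-CJ (0.60, adjusted p = 0.115 in limma) and kept without array 2 (0.95, adjusted p = 0.0208). CC was higher than AA-CJ by 4.07 ± 0.16 (SE) on the log2 scale from the difference of both ratios (limma, adjusted p = 0.000176).

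Cntn1, a lipid-anchored contactin of axons that binds L1-type proteins and tenascins, ran the same way with smaller values. Its log2 intensity was 5.84 and 5.97 in AA-CJ, not well above background on either array. In CC-CJ it was 6.30 and 6.28 beside AA-CJ and 6.79 and 6.87 beside CC, and in CC it was 8.16 and 8.38. The 3 RNAs did not overlap, again without a count over all genes. M for CC-CJ versus CC was -1.37 and -1.51, with a mean of -1.44 ± 0.087 (SE, limma, adjusted p = 0.000459). For AA-CJ there was only a bound, and in the Cy5 intensities set directly against each other CC was at least 4.76-fold higher than AA-CJ. The fitted difference of ratios, which rests on the measured AA-CJ signal, was smaller, 1.82 on the log2 scale or 3.53-fold (limma, adjusted p = 0.000759), so the size depends on which of the 2 is read. The bound takes, on each AA-CJ array, the higher of the lowest signal among probes well above background and the signal of the probe itself. CC-CJ was at least 1.2-fold higher than AA-CJ by the same rule, with M of 0.46 and 0.30 and an adjusted p of 0.0683 in limma, above the threshold of 0.05.

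**Figure D1:**
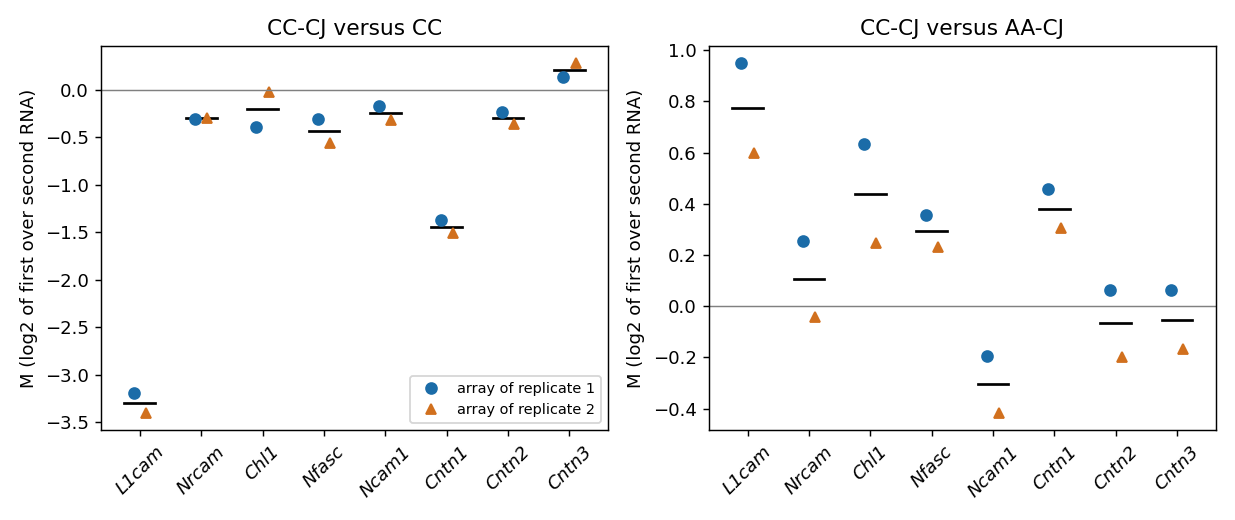
M (log2 ratio) of the 8 tested members on each array, for CC-CJ versus CC on the left and CC-CJ versus AA-CJ on the right; circles and triangles are the arrays of replicate 1 and 2, and bars are means of 2 arrays. L1cam (mean -3.29) and Cntn1 (mean -1.44) lie far below the other members on the left, and L1cam is highest (0.95 and 0.60) on the right, where array 2 lies below array 1 for every member.

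The remaining members of the L1 family had smaller differences. Nfasc encodes neurofascin, an ankyrin-binding protein of the axon initial segment and the node. Its log2 intensity was 6.32 and 6.49 in AA-CJ, 6.68 and 6.72 in CC-CJ beside AA-CJ, 6.77 and 6.77 in CC-CJ beside CC, and 7.07 and 7.33 in CC. The groups did not overlap, as for L1cam and Cntn1, although CC-CJ was read in Cy3 and the others in Cy5. The share of all genes with this order was not counted. CC was higher than AA-CJ by 0.72 ± 0.14 (SE, limma, adjusted p = 0.0484), a value at the edge of the threshold that was lost without array 1 (adjusted p = 0.121 in limma) or array 2 (0.0636) of CC-CJ versus AA-CJ, without array 2 of CC-CJ versus CC (0.186), with the replicate number as a block (0.0897), with no background correction (0.0739) and with Agilent's processed signals (0.0942). It passed in 10 of 17 fits, which were not all distinct, since the choice of probe summary could not move M of a gene with 1 probe. CC-CJ versus CC gave -0.43 (95% interval -0.66 to -0.20, adjusted p = 0.0892 in limma), and CC-CJ versus AA-CJ gave 0.29 (0.066 to 0.52, adjusted p = 0.137).

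Chl1, close homolog of L1, is an L1-family protein known in neurons and in glia. Its brightest probe read a log2 intensity of 9.0 and 9.97 in AA-CJ. The 4 CC-CJ values of that probe lay between 10.37 and 10.51, and CC gave 10.86 and 10.54. AA-CJ was the lowest RNA on this probe, and the 2 AA-CJ samples lay farther apart than the samples of any other RNA. For CC-CJ versus AA-CJ its M was 1.39 and 0.53, a mean of 0.96 (95% interval 0.49 to 1.44, adjusted p = 0.0546 in limma over all probes). A second probe gave M of 0.47 and 0.13 (adjusted p = 0.265), and the third, well above background in CC alone, gave 0.030 and 0.070 (adjusted p = 0.786). Averaged over its 3 probes, Chl1 gave 0.44 for CC-CJ versus AA-CJ (0.13 to 0.75, adjusted p = 0.114 in limma) and -0.21 for CC-CJ versus CC (-0.52 to 0.10, adjusted p = 0.467). The brightest probe passed the study's criterion of 2 SD from the mean of M on both arrays of CC-CJ versus AA-CJ (upper limits 0.47 and 0.43). So did L1cam, while 1.01% of all probes on the array passed it upward. M and the limits here came after loess within arrays, whereas the study applied its criterion after a different local normalization. The study also asked that probes of a gene gave comparable results. It left out raised mRNAs that fell past 2 SD after cold jet, as possible left-over neuronal RNA. By the values here, L1cam lay past that lower limit (M of -3.19 and -3.40, limits -0.42 and -0.55), although the paper names it among the raised mRNAs.

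Nrcam, an ankyrin-binding relative of neurofascin, had 2 tested probes that differed in size. For CC versus AA-CJ, the probe at chr6:64004892-64012153 (rn4) gave 0.61 (0.26 to 0.95, adjusted p = 0.0926 in limma over all probes). The probe at chr6:63989136-64003244 gave 0.20 (-0.13 to 0.54, adjusted p = 0.512). Together they gave 0.40 (0.077 to 0.73, adjusted p = 0.199 in limma). For CC-CJ versus CC, M of Nrcam was -0.31 and -0.29 (adjusted p = 0.203), and for CC-CJ versus AA-CJ it was 0.25 and -0.043 (adjusted p = 0.567), so its sign differed between the last 2 arrays.

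Ncam1, the neural cell adhesion molecule of neurons and glia, was well above background in all channels. Its log2 intensity was 9.93 and 10.11 in AA-CJ, 9.73 and 9.70 in CC-CJ beside AA-CJ, 9.65 and 9.62 in CC-CJ beside CC, and 9.82 and 9.94 in CC. CC lay between 9.82 and 9.94 and overlapped AA-CJ, and every CC-CJ value lay below every CC and AA-CJ value. How many of all genes had that order was not counted. The difference between CC and AA-CJ, both in Cy5, was -0.063 (95% interval -0.38 to 0.25, adjusted p = 0.838 in limma). M was -0.17 and -0.31 for CC-CJ versus CC (adjusted p = 0.264) and -0.19 and -0.42 for CC-CJ versus AA-CJ (adjusted p = 0.122), so CC-CJ, always in Cy3, was read below its Cy5 partner on all 4 arrays. The probe was spotted 10 times per array, and the SD of M over those spots was 0.031 to 0.053, smaller than the gap between -0.19 and -0.42. Dye and condition cannot be told apart for these ratios.

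Cntn2, the axonal contactin also called TAG-1, and Cntn3, a contactin of neurons, had no value past the threshold. Cntn2 had a log2 intensity of 6.85 and 6.80 in AA-CJ and 6.89 and 6.80 in CC. Those groups overlapped. CC versus AA-CJ was 0.23 for Cntn2 (-0.099 to 0.55, adjusted p = 0.439 in limma), and M for CC-CJ versus CC was -0.23 and -0.35 (adjusted p = 0.209). Cntn3 was the member whose M had the opposite sign, 0.14 and 0.28 for CC-CJ versus CC (mean 0.21, -0.014 to 0.43, adjusted p = 0.321 in limma). Its log2 intensity was 7.11 and 7.42 in AA-CJ and 6.93 and 7.00 in CC, with CC the lower in both samples and a fitted difference of -0.26 (-0.58 to 0.055, adjusted p = 0.361).

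**Figure D2:**
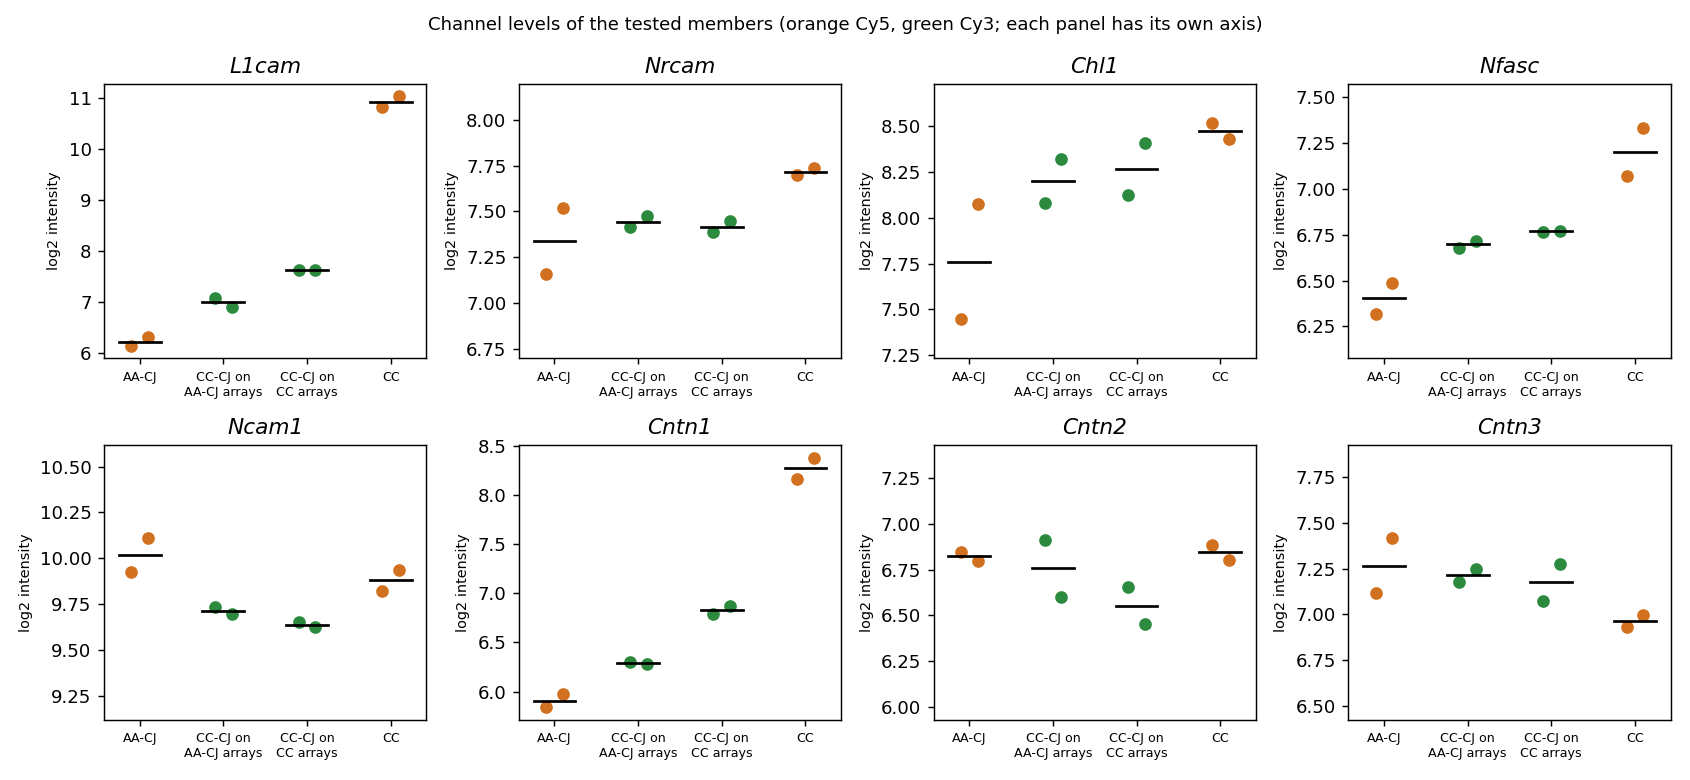
Log2 intensity of the 8 tested members by channel (Cy5 in orange, Cy3 in green), for AA-CJ, CC-CJ on both array pairs and CC, with 2 samples as points and their mean as a bar; each panel has its own axis, since probes are not compared with each other, and Chl1 and Nrcam are means over their probes. L1cam, Cntn1 and Nfasc step upward from AA-CJ to CC without overlap, as Chl1 does by narrow gaps, while Ncam1 lies within 9.62 to 10.11 in all samples. The share of all genes with this order was not counted.

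Counted over the 8 tested members, 2 had fallen after cold jet, that is in CC-CJ versus CC, at a limma adjusted p under 0.05 (L1cam and Cntn1), and 0 had risen. Of all 21376 genes tested, 2.25% were lower and 0.0982% higher at that threshold. At an unadjusted p under 0.05, 6 members were lower and 0 higher, beside 11.8% and 5.11% of all genes. For CC-CJ versus AA-CJ, 1 of 8 was higher (L1cam) and 0 lower, beside 1.89% and 1.13% of all genes, and at an unadjusted p under 0.05 there were 4 and 1 of 8, beside 10.8% and 11.8% of all genes. For CC versus AA-CJ, 3 of 8 were higher (L1cam, Cntn1 and Nfasc) and 0 lower, beside 2.57% and 0.0795%, and at an unadjusted p under 0.05 there were 5 and 0 of 8, beside 11.3% and 6.42% of all genes. By the criterion of 2 SD on both arrays, L1cam and Cntn1 were lower in CC-CJ versus CC and no member was higher, beside 1.27% and 0.117% of all probes. The median over the members was -0.30 for CC-CJ versus CC against -0.024 over all genes, 0.20 for CC-CJ versus AA-CJ against -0.016, and 0.52 for CC versus AA-CJ against 0.0015. The comparisons share the CC-CJ label or are built from each other, so these counts are not independent. Bulk RNA alone does not separate fewer neurons from less mRNA per neuron, while the paper's staining counts showed most neuronal somas and neurites removed by cold jet. In CC-CJ, left-over neuronal mRNA and mRNA of astrocytes cannot be told apart on these arrays.

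L1cam and Cntn1 held their calls for CC-CJ versus CC in each of the 17 fits that tested them, the one reported above included. M ran from -4.32 to -3.19 for L1cam and from -2.05 to -1.31 for Cntn1 when Agilent's own processed signals are left aside. These fits were not all distinct. Each gene had 1 probe, so the choice of probe summary could not move its M. Leaving out either array of CC-CJ versus AA-CJ gave the same fit as the CC-CJ versus CC arrays alone. Median centring of the arrays instead of loess moved the median of all genes to -0.59 for CC-CJ versus CC and to -0.48 for CC-CJ versus AA-CJ. It then called 652 genes higher and 13692 lower in the first and 713 higher and 12527 lower in the second, against 21 and 481 and 403 and 242 with loess. Relative to the shifted median, L1cam was at -3.73 and Cntn1 at -1.46 for CC-CJ versus CC, and L1cam was at 1.24 for CC-CJ versus AA-CJ. Ncam1 lay at -0.73 and -0.90 relative to those medians, farther down than with loess.

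The share left after cold jet was taken as the CC-CJ intensity above AA-CJ in percent of the CC intensity above AA-CJ, on the linear scale. It was computed for probes at least 2-fold higher in CC than in AA-CJ and above background in CC and CC-CJ, which gave 3 members. L1cam kept 7.36% and 5.94% (6.65 ± 0.999%, SD, n = 2). Cntn1 kept 23.2% and 20.2% (21.7 ± 2.16%, SD, n = 2), so that both of its values lay above both values of L1cam. For Chl1, on its brightest probe, the values were 59.9% and 93.1% (76.5 ± 23.5%, SD, n = 2), above those of L1cam and Cntn1 but far apart. With 2 replicates per member no test was made. The Chl1 intensities of replicate 1 were 512 (AA-CJ), 1319 (CC-CJ) and 1858 (CC), and those of replicate 2 were 1005, 1452 and 1485. AA-CJ was joined with CC and CC-CJ of a different array by replicate number alone. Deviations between the arrays of a comparison were not alike by that number (correlation across genes -0.112). This correlation cannot show whether the number pairs cultures or RNA. Each share and its SD depend on the choice of pairing. The AA-CJ level subtracted for Cntn1 was not well above background.

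The level of CC-CJ itself depended on the array pair, and the share moved with it. When the CC-CJ intensity was taken from the arrays that held AA-CJ, L1cam kept 3.77% and 2.01% (mean 2.89%) and Cntn1 9.33% and 5.44% (mean 7.39%), lower than beside CC. Chl1 kept 77.8% on average, close to its value beside CC. On the log2 scale, CC-CJ was higher beside CC than beside AA-CJ by 0.64 for L1cam, 0.54 for Cntn1 and 0.072 for Nfasc, with no overlap between the 2 pairs of values. This held for 3 of 8 members, for 8 of 11 neuron markers and for 7.99% of all genes tested, and the median difference over all genes was -0.035. Among those markers it was 0.48 for Mapt, which encodes the axonal protein tau. The Cy5 intensities of CC and AA-CJ set directly against each other differed by 4.70 for L1cam on the log2 scale, more than the 4.07 from the difference of ratios. Whether different CC-CJ samples or the partner in the other channel moved these values was not tested.

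**Figure D3:**
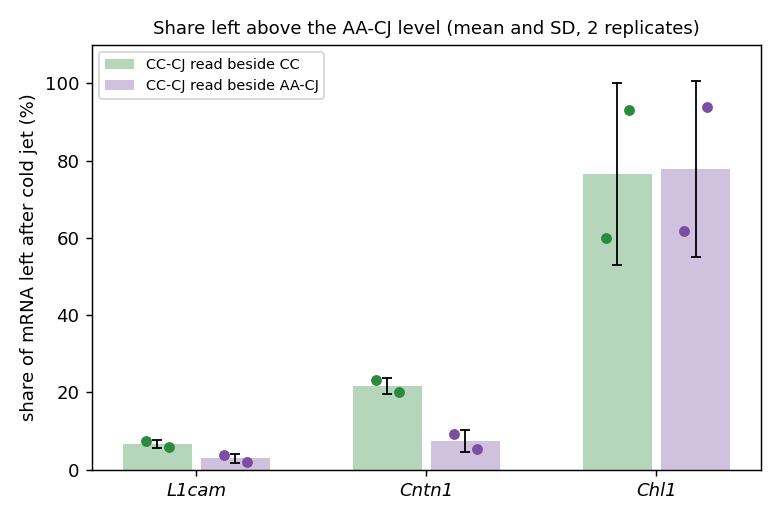
Share left after cold jet in percent of the level above AA-CJ, for L1cam, Cntn1 and Chl1, with CC-CJ taken from the arrays that hold CC (green) or AA-CJ (purple); points are 2 replicates, bars are means and error bars SD. L1cam stays under 8% in both readings, Cntn1 goes from a mean of 21.7% to 7.39%, and Chl1 has means of 76.5% and 77.8% with a wide spread.

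Among other immunoglobulin adhesion molecules of neural cells, only Ntm and Mag gave calls. Of 22 listed, 20 were on the array and 15 were tested, and 2 had fallen in CC-CJ versus CC, beside 2.25% of all genes. Ntm, neurotrimin, a lipid-anchored IgLON of neurons, had an M of -0.88 (limma, adjusted p = 0.00541). Mag, the myelin-associated glycoprotein, had a CC-CJ signal beside CC that was not well above background, and CC was at least 1.77-fold higher (limma, adjusted p = 0.00811). In CC versus AA-CJ they were also the 2 that rose, beside 2.57% of all genes. Ntm rose by 1.11 (limma, adjusted p = 0.00841) and Mag by 0.89 or 1.86-fold (limma, adjusted p = 0.0241). Mag was not well above background in AA-CJ. In the Cy5 intensities set directly against each other, its CC level was at least 2.28-fold higher, a value that was not tested. None of the 15 passed for CC-CJ versus AA-CJ in limma, where M ran from -0.28 to 0.34. At an unadjusted p under 0.05, 2 of the 15 were higher and 2 lower there, beside 10.8% and 11.8% of all genes. At that threshold, 5 of the 15 were lower and 0 higher for CC-CJ versus CC, beside 11.8% and 5.11%. For CC versus AA-CJ, 5 were higher and 0 lower, beside 11.3% and 6.42%. The medians of the list were -0.066, 0.089 and 0.014 in CC-CJ versus CC, CC versus AA-CJ and CC-CJ versus AA-CJ.

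Among the partners of these molecules, which are cytoskeletal anchors, contactin-associated proteins, matrix and receptor partners, polysialyltransferases and sheddases, 24 of 28 listed genes were tested. Only Dcx passed in any of the 3 comparisons at an adjusted p under 0.05, which is 1 of 24. It was lower for CC-CJ versus CC, beside 2.25% of all genes. It was higher for CC-CJ versus AA-CJ and CC versus AA-CJ, beside 1.89% and 2.57%. Dcx encodes doublecortin, a microtubule protein of young neurons that binds neurofascin. Its M was -3.70 for CC-CJ versus CC (limma, adjusted p = 0.000113). It was not well above background in AA-CJ, and CC-CJ was at least 1.83-fold higher than AA-CJ (adjusted p = 0.0281). The ankyrins Ank2 and Ank3, which anchor L1-type proteins, had M of -0.012 and -0.074 for CC-CJ versus CC (adjusted p = 0.965 and 0.704). The medians of the list were -0.066 for CC-CJ versus CC and 0.0037 for CC-CJ versus AA-CJ.

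Markers of neurons moved in part along with L1cam and Cntn1. Of 12 neuron markers, 11 were tested. At an adjusted p under 0.05 in limma, 7 were lower for CC-CJ versus CC, beside 2.25% of all genes. There were 6 higher for CC versus AA-CJ, beside 2.57%, and 4 higher for CC-CJ versus AA-CJ, beside 1.89%. Snap25 belongs to the synaptic release machinery. Mapt had an M of -2.87 for CC-CJ versus CC and 0.63 for CC-CJ versus AA-CJ (limma, adjusted p = 0.000113 and 0.0375). Snap25, not well above background in CC-CJ, was at least 3.88-fold higher in CC (limma, adjusted p = 0.00012). For CC-CJ versus AA-CJ, Snap25 had an M of 0.095 (limma, adjusted p = 0.535). The summed intensity of the neuron markers was 8171 and 8746 in AA-CJ, 7721 to 8109 in CC-CJ, and 18583 and 19224 in CC, a sum in which Stmn2 weighs most in AA-CJ. Dcx, Elavl4 and Syp were the neuron markers not well above background on any AA-CJ array, and 9 of 12 were above it on at least 1. The 9 astrocyte markers were all above background in all 3 RNAs. None passed in limma in any comparison, while 2 were higher for CC-CJ versus AA-CJ and 2 for CC versus AA-CJ at an unadjusted p under 0.05, beside 10.8% and 11.3% of all genes. Their M for CC-CJ versus CC ran from -0.15 to 0.22, with Gfap, the glial filament protein, at 0.083 (adjusted p = 0.854).

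Oligodendrocyte lineage markers summed to 2737 and 3218 in AA-CJ, 2594 to 2820 in CC-CJ and 3079 and 3776 in CC. Of 8 tested, 1 fell in CC-CJ versus CC, beside 2.25% of all genes. It was Sox10 (M of -1.12, limma, adjusted p = 0.0343), and Pdgfra, a receptor of oligodendrocyte precursors, had -0.38 (adjusted p = 0.244). Microglia had 1 of 3 tested markers lower for CC-CJ versus CC and fibroblasts 2 of 3, beside the same 2.25% of all genes. The microglia marker was Aif1, not well above background in CC-CJ and at least 1.45-fold higher in CC (adjusted p = 0.0443 in limma). The fibroblast markers were Dcn (-0.77, limma, adjusted p = 0.00567) and Col1a2 (-0.59, adjusted p = 0.0315). Summed microglia markers were 163 and 257 in AA-CJ, 202 to 231 in CC-CJ and 301 and 326 in CC. Fibroblast markers summed to 42949 and 48149, 37134 to 43004, and 52761 and 53672 in the same order, and of 4 endothelial markers 1 was tested and did not pass. The part of these cells in the values of the adhesion molecules was not tested.

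**Figure D4:**
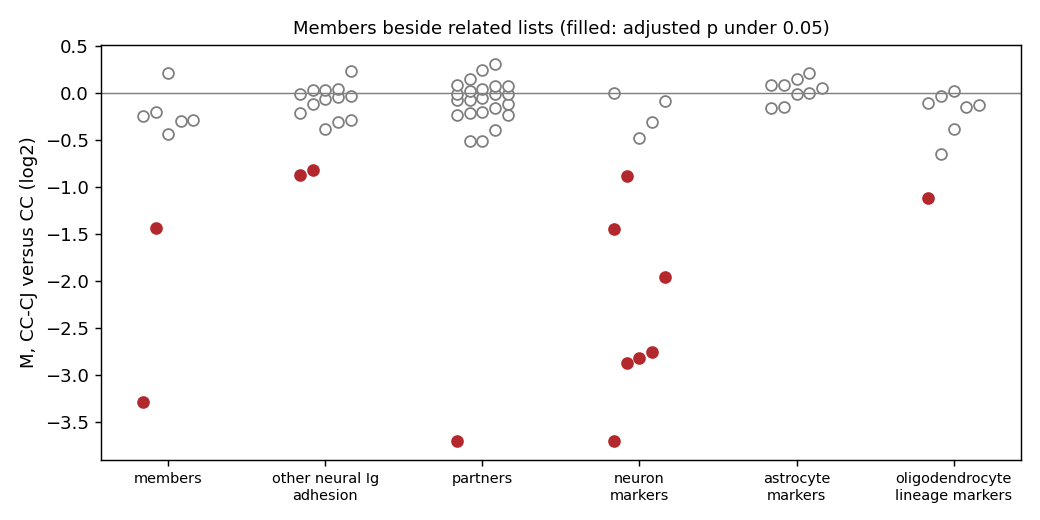
M for CC-CJ versus CC (log2) of each tested gene, by list; filled points passed an adjusted p of 0.05 in limma and open points did not, and the sideways spread carries no value. L1cam is at -3.29 and Cntn1 at -1.44, the other 6 members lie between -0.43 and 0.21, the neuron markers run from -3.70 to -0.00094 and so span most members, and Dcx (-3.70) appears under partners and neuron markers alike.

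Genes with the most similar ratios were found by the root mean square difference of M over the 4 arrays. For L1cam they were Dcx (0.31), Mapt (0.33) and Elavl4 (0.36), and for Cntn1 they were Slitrk5 (0.15), Apba2 (0.16) and Slc32a1 (0.16). Nfasc was nearest to Mapk10 (0.051), Emg1 (0.067) and Crmp1 (0.074), and Chl1 to Atp7a (0.058), Cd24 (0.096) and Ccl6 (0.10). Differences near 0 are common among genes with small M, so that the distances of L1cam and Cntn1 are not comparable with those of Nfasc and Chl1.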

How the data were processed

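RNA of CC, CC-CJ and AA-CJ was hybridized on 4 two-colour arrays of 1 slide. The authors deposited spot intensities from Agilent Feature Extraction 9.5.1.1, on a linear scale and not normalized, and a table of processed log2 ratios, which the scanner values showed to be Cy5 over Cy3 and which served as an alternative. Analysis was done in limma 3.58.1 (R 4.3.3). Normexp with an offset of 50 was applied to mean signals, which were normalized by loess (span 0.3) within arrays. Kept were 24881 of 41012 probes, those well above background in all samples of 1 or more of the RNAs, and gene values are means over kept probes. Levels are log2 intensities after Aquantile and hold the offset. One limma fit covered all 4 arrays (residual df 2, prior df 4.67), with Benjamini-Hochberg adjustment over 21376 genes, and over 24881 probes for single probes. Probes above background made up 50.3% to 62.6% per channel, and the number of arrays limits precision. The RefSeq gene table named 10835 of the 16321 probes that carry such an accession. All members are named, and of the lists of other adhesion molecules and of partners those past an adjusted p of 0.05 with the same sign on both arrays. Of the cell type markers, Mapt, Snap25, Gfap and Pdgfra were to be named. Ank2, Ank3, Stmn2, Elavl4, Syp, Sox10, Aif1, Dcn and Col1a2 were named after their values were seen. The labels number the arrays of each comparison as replicates 1 and 2, and the paper states that array replicates came from different pools of animals. The limma p-values rest on the spread between the arrays of a comparison, pooled over both comparisons and moderated over all genes. Were CC-CJ RNA shared between the array pairs, the 4 arrays would not be independent. Members and lists were chosen with earlier results of these data known. The steps were tested on simulated data. Alternatives covered background, offset, normalization, the authors' table, filter, probe summary, replicate block and each array left out.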

Additional observations from a re-analysis of the deposited data

How the results depend on the processing

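For CC-CJ versus CC, the count of members past the threshold was 7 with median centring and 0 where probes had to be above background in all channels, a filter under which L1cam and Cntn1 left the test and 5 members remained. For CC-CJ versus AA-CJ, it was 2 with an offset of 20, the local regression or the authors' value table (L1cam and Cntn1), 2 with the 2 SD rule or the crossed replicate pairing (L1cam and Chl1), 5 with median centring, and 0 with the all-channel filter, and it ran from 0 to 1 with each array left out. For CC versus AA-CJ it was 0 with the all-channel filter, where the adjusted p of Nfasc was 0.0589. The median share left of 21.7% was 36.9% with no subtraction of AA-CJ, 29.3% with Agilent's processed signals (4 members), 26.5% with an offset of 20 (4 members) and 7.39% with CC-CJ from the AA-CJ arrays, and 20.2% to 23.2% with a replicate left out. With Agilent's processed signals, Cntn1 passed for CC-CJ versus AA-CJ (adjusted p = 0.0185 in limma) and L1cam did not (2.38, adjusted p = 0.0822), and 71 genes were higher and 9 lower.

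Signs turned for small values. With median centring, Cntn3 was -0.16 for CC-CJ versus CC, and Chl1 was -0.036 and Nrcam -0.34 for CC-CJ versus AA-CJ, with the median of all genes shifted as given above. With the authors' table, Cntn3 was 0.0042 for CC-CJ versus AA-CJ. Without array 1 of CC-CJ versus AA-CJ, Nrcam was -0.043, Cntn2 -0.20 and Cntn3 -0.17, and without array 2 they were 0.25, 0.065 and 0.063. Ncam1 for CC versus AA-CJ ran from -0.17 (without array 1 of CC-CJ versus AA-CJ) to 0.047 (without array 2) and was 0.0089 without array 1 of CC-CJ versus CC. Where an array was left out, the lone array was assumed to vary like the other pair. The cause of these changes was not tested.

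The labels give both comparisons the replicate numbers 1 and 2. Deviations between arrays were not alike by these numbers (correlation across genes -0.112), which cannot show whether they pair cultures or RNA. With the replicate number as a block, 2, 1 and 2 members passed for CC-CJ versus CC, CC-CJ versus AA-CJ and CC versus AA-CJ, against 2, 1 and 3 without it. The crossed pairing, the CC-CJ channel of the other arrays and the brightest probe were added after seeing the data, and the crossed pairing gave 2, 2 and 4. With 2 arrays per comparison, small differences were not detectable.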

Other observations

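A further Ncam1 probe lay outside the rule for members, since it was designed for a transcript entry of the boundary between exons 12 and 13 (rn4 chr8:52852378-52854048), and it was looked at after the values of the other Ncam1 probe were seen. Its log2 intensity was 7.57 and 7.48 in AA-CJ, 7.55 to 7.66 in CC-CJ, and 7.65 and 7.61 in CC. Its M for CC-CJ versus AA-CJ came to 0.058 and 0.19 (mean 0.12, 95% interval -0.081 to 0.33, adjusted p = 0.45 in limma over all probes) and -0.034 and -0.063 for CC-CJ versus CC (adjusted p = 0.819). In the same comparison with AA-CJ, the main Ncam1 probe gave -0.30 (-0.53 to -0.077, adjusted p = 0.126 over all probes), so the intervals of the 2 probes overlapped, and their difference was not tested. None of the 11 tested probes had a CC-CJ sample standing apart from the other 3 by Dixon's criterion. This criterion looks for a lone stray value and cannot see a split between the array pairs, such as the one given above for L1cam.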
